A study of Yarrowia lipolytica with 9 samples.

Results

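The 6 acyl-CoA oxidase genes POX1 to POX6 of the oleaginous yeast Yarrowia lipolytica are described here across 3 beta-carotene producing strains, out of 6145 features counted in all. The genes were chosen by RefSeq transcript accession: XM_504703.1 (POX1), XM_505264.1 (POX2, YALI0F10857g), XM_503244.1 (POX3, YALI0D24750g), XM_504475.1 (POX4), XM_502199.1 (POX5) and XM_503632.1 (POX6). A gene was kept when its feature length lay within 0.1 kb of 2.1 kb. The lengths returned by the deposited values were 2034, 2103, 2103, 2106, 2100 and 2070 bases from POX1 to POX6, so all 6 were kept. The deposited files give no gene names, so the names rest on this pairing. In the RefSeq annotation of strain W29 (assembly ASM176148v1), 5 of the 6 accessions were found, and that of POX2 lay on the chromosome F named in its identifier. The W29 gene had the same length as the feature for POX2, POX4, POX5 and POX6, but for POX1 it had 2070 bases against 2034.

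Acyl-CoA oxidases catalyse the first step of beta-oxidation in the peroxisome. They turn an acyl-CoA into an enoyl-CoA and pass the electrons to oxygen, which gives hydrogen peroxide. Many yeasts break down fatty acids in the peroxisome and not in the mitochondrion. Y. lipolytica, which grows on oils and alkanes, holds a family of acyl-CoA oxidases where Saccharomyces cerevisiae has a single one. The members differ in substrate: Pox2 prefers long-chain acyl-CoA and Pox3 short-chain acyl-CoA, Pox4 and Pox5 are weakly active over a broad range of chain lengths, and Pox1 and Pox6 have been linked to dicarboxylic acids.

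All strains descended from ATCC 201249, an auxotrophic strain with ura3, leu2 and lys8 alleles and an HA-tagged PEX17. They carried the bacterial genes crtE, crtB, crtI and crtY at the rDNA, in a construct with a Ura3 marker. Extra Yl-SPT15 cassettes, aimed at the GUT2 site and driven by the GPAT, YAT1, XPR2, FBA and LEU promoters, were present in all of them. A Leu2 marker came with these cassettes, and the medium lacked uracil and leucine. By the study's quantitative PCR, GUT2 expression was partly reduced in all of them relative to the strain without the cassettes. Yl-SPT15 is the likely counterpart of the gene for the TATA-binding protein of S. cerevisiae. Yl_5_2, labelled Y5_2, was picked for its deep yellow colour and held the changes E208A in module 1 and P25T, A213T and A216V in module 5 (positions counted from the first residue of Yl-Spt15). Yl_5_3, labelled Y5_3, was picked for its light colour and held F194L in module 2 by the study's main text, although a heading in its supplement puts that module under Yl_5_2. The remaining modules of both strains, and all modules of Yl_5_1, the control labelled ctrl, were wild type. Each mutant strain was 1 colony and the control was likewise 1 strain, so the Yl-SPT15 changes and any other difference between these strains cannot be told apart. Each strain gave 3 samples from flasks shaken at 250 rpm and 28 °C for 96 h. Nothing states that they were separate cultures, so the p-values measure the spread between these samples, which may be technical.

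The total count was between 17771507 and 23288547 per sample, and samples of 1 strain differed by more than counting error (chi-square per degree of freedom of at least 3.34). Counts are relative to the other transcripts of a sample, so a fall of a gene and a rise of the other transcripts cannot be told apart. The amount of RNA per cell is not known from them. The level of a gene is given as FPKM, which corrects the deposited count for the length of the gene and the depth of the sample and allows comparison between genes. Differences between strains come from the counts, scaled by TMM factors between 0.952 and 1.05, in a quasi-likelihood model of all 9 samples (edgeR), with p-values adjusted over 6037 features that had at least 10 counts in at least 3 samples. All 6 genes passed this filter. Fold changes are of the TMM-scaled counts, so they differ slightly from ratios of FPKM. A gene is said to have risen or fallen at an adjusted p under 0.05.

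The expression levels of the 6 genes spanned a wide range, and their order was led by the same genes in every strain. POX2 had the highest level, with 377 ± 10.9 FPKM in Yl_5_2, 211 ± 2.13 in Yl_5_3 and 279.7 ± 16.0 in Yl_5_1 (SD, n = 3 each). This placed it at rank 460 of the 6145 features in Yl_5_2, 836 in Yl_5_3 and 638 in Yl_5_1. POX3 was next, at 251 ± 2.12 FPKM in Yl_5_2, 123 ± 1.74 in Yl_5_3 and 209 ± 17.8 in Yl_5_1. After these came a drop of 6.62-fold to POX4 in Yl_5_2, 6.33-fold in Yl_5_3 and 10.4-fold in Yl_5_1. POX4 lay below the median feature in each strain, at 0.803 times that median in Yl_5_2, 0.475 times in Yl_5_3 and 0.447 times in Yl_5_1.

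The lower part of the order differed between strains. POX6 was the fourth and POX5 the fifth in Yl_5_2 (14.0 ± 1.02 and 11.3 ± 0.440 FPKM), while in Yl_5_3 POX5 was the fourth and POX6 the fifth (11.8 ± 0.458 and 6.78 ± 0.409 FPKM). Yl_5_1 had the order of Yl_5_2, with 11.5 ± 0.188 FPKM for POX6 and 9.97 ± 0.0780 for POX5. POX1 was the lowest of the family everywhere, at 1.51 ± 0.0235 FPKM in Yl_5_2, 0.563 ± 0.177 in Yl_5_3 and 1.73 ± 0.161 in Yl_5_1. In no strain did the samples of neighbours in the order overlap.

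**Figure D1:**
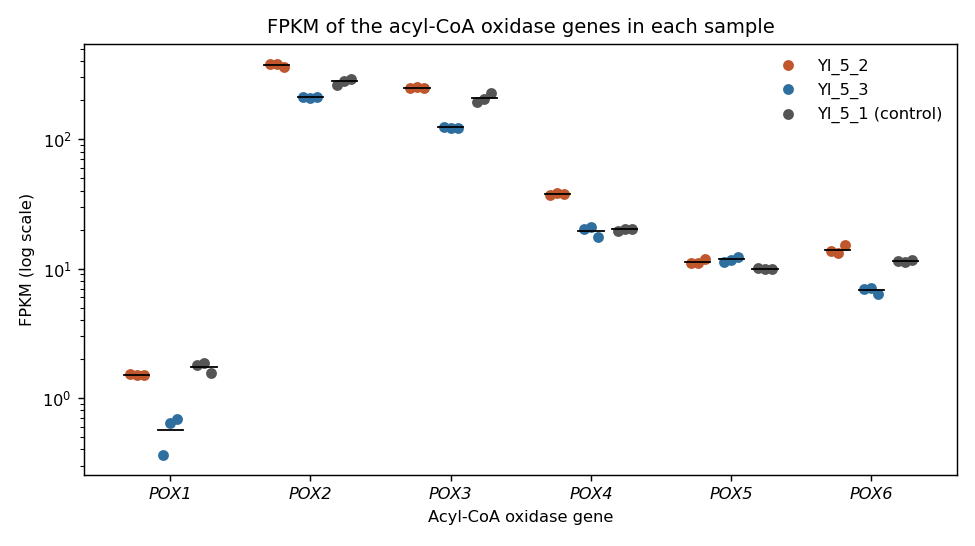
FPKM (log axis) of POX1 to POX6 in each of the 9 samples; points are samples, bars are the means of 3, and the strains run from Yl_5_2 through Yl_5_3 to the control Yl_5_1. POX2 and POX3 lie at 122 FPKM or more in every sample, and POX1 lies below 2 FPKM.

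The spread between samples of POX2 and POX3 was well above counting error in Yl_5_1 and close to it in Yl_5_3. In Yl_5_3 the coefficient of variation of the scaled counts was 1.49% for POX2 and 1.30% for POX3, against 1.08% and 1.41% from counting alone. In Yl_5_1 the values were 6.49% for POX2 and 9.27% for POX3, against 0.925% and 1.07% from counting. For POX1 the counts themselves limited the precision, since 14 to 85 reads per sample give a counting error of 13.4% in Yl_5_2, 21.2% in Yl_5_3 and 11.9% in Yl_5_1.

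Taken as a family, the oxidase transcripts were most abundant in Yl_5_2 and least abundant in Yl_5_3. The summed level of the 6 genes was 697, 700.1 and 680.4 FPKM in the samples of Yl_5_2, 375, 372 and 372 FPKM in those of Yl_5_3 and 500.3, 529 and 566 FPKM in those of Yl_5_1. The strains did not overlap. Per sample the 6 genes took between 0.143% and 0.147% of all counts in Yl_5_2, between 0.0781% and 0.0788% in Yl_5_3 and between 0.105% and 0.119% in Yl_5_1. These sums describe mostly POX2 and POX3, which made up 90.7 ± 0.368% of the summed FPKM in Yl_5_2, 89.7 ± 0.487% in Yl_5_3 and 91.8 ± 0.452% in Yl_5_1 (SD, n = 3).

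**Figure D2:**
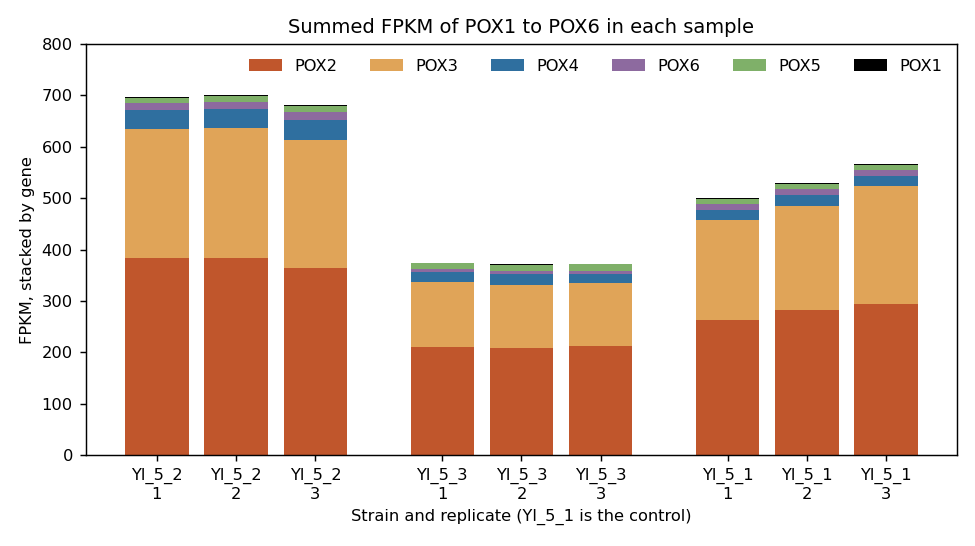
Summed FPKM of POX1 to POX6 in each sample, stacked by gene; strains run from Yl_5_2 through Yl_5_3 to the control Yl_5_1, with replicates 1 to 3. Totals lie between 680.4 and 700.1 FPKM in Yl_5_2, between 372 and 375 in Yl_5_3 and between 500.3 and 566 in Yl_5_1.

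In Yl_5_2 relative to Yl_5_1, POX2, POX3, POX4 and POX6 rose, none fell, and POX1 and POX5 did not pass the test. Thus 4 of 6 genes rose, where 27.4% of all features tested rose and 30.0% fell (57.4% in either direction). The median log2 fold change of the 6 genes was 0.21, against -0.0060 over all features. In Yl_5_3 relative to Yl_5_1, POX1, POX2, POX3 and POX6 fell, POX5 rose and POX4 did not pass the test. The 4 falls stand beside 29.7% of all features that fell, and the single rise beside 25.6% that rose (55.3% in either direction), with a median of -0.52 for the 6 genes and -0.0033 over all features. Both comparisons share the Yl_5_1 samples, so the mutant strains were also compared directly. There 5 of 6 genes were higher in Yl_5_2 than in Yl_5_3 and POX5 was lower, where 36.5% of all features tested were higher, 30.9% lower and 67.4% changed in either direction. The median was 0.86, against 0.029 over all features.

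**Figure D3:**
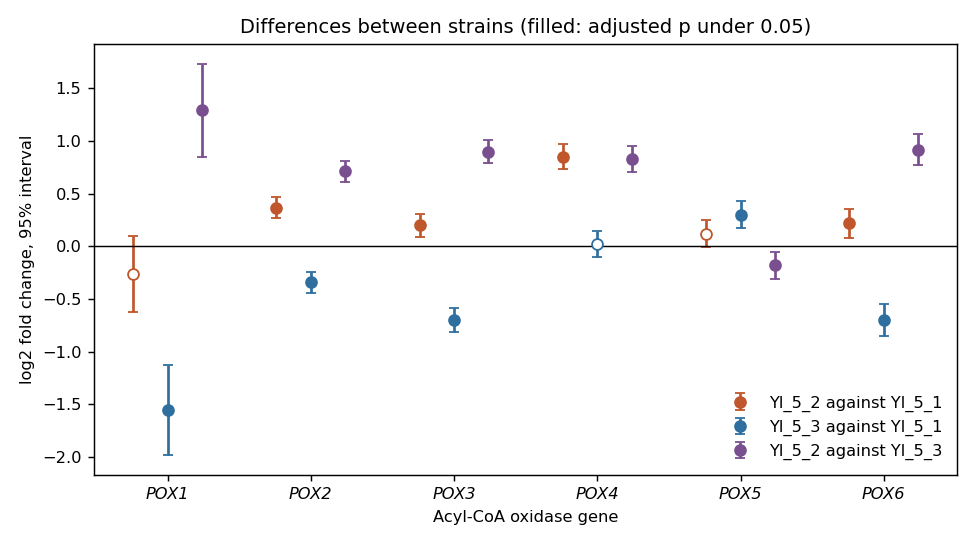
Log2 fold changes of POX1 to POX6 with 95% intervals (edgeR, 3 samples per strain), for Yl_5_2 against Yl_5_1, Yl_5_3 against Yl_5_1 and Yl_5_2 against Yl_5_3; filled points have an adjusted p under 0.05. POX2, POX3 and POX6 lie above 0 in Yl_5_2 and below 0 in Yl_5_3, while POX4 stands at 0.85 in Yl_5_2 and 0.02 in Yl_5_3.

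POX2, the oxidase of long-chain acyl-CoA, had 384, 383 and 365 FPKM in Yl_5_2, 211, 209 and 213 FPKM in Yl_5_3 and 262, 283 and 294 FPKM in Yl_5_1. Every sample of Yl_5_2 was above and every sample of Yl_5_3 below those of Yl_5_1. Its log2 fold change in Yl_5_2 against Yl_5_1 was 0.37 (SE 0.05, edgeR adjusted p = 4.51e-06), which is a rise to 1.29 times the control. In Yl_5_3 it was -0.34 (SE 0.05, edgeR adjusted p = 1.13e-05), or 0.789 times the control. Set directly against Yl_5_3, POX2 was 1.64-fold higher in Yl_5_2 (95% interval 1.53 to 1.75, edgeR adjusted p = 9.61e-10).

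POX3, which acts on short-chain acyl-CoA, had 249.6, 253 and 249 FPKM in Yl_5_2, 125, 122 and 122 FPKM in Yl_5_3 and 195, 203 and 229 FPKM in Yl_5_1. Again the control samples lay between those of the mutant strains, closer to Yl_5_2. The log2 fold change was 0.20 in Yl_5_2 (SE 0.05, edgeR adjusted p = 0.00330) and -0.70 in Yl_5_3 (SE 0.05, edgeR adjusted p = 8.48e-09). Leaving out each sample in turn moved the value in Yl_5_2 between 0.15 and 0.28 (edgeR adjusted p up to 0.0199). Between the mutant strains POX3 was 1.86-fold higher in Yl_5_2 (95% interval 1.73 to 2.01, edgeR adjusted p = 2.26e-10).

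POX4, an oxidase of low activity and broad range, had the largest rise of the family in Yl_5_2 and no detected change in Yl_5_3. It had 37.0, 38.5 and 38.0 FPKM in Yl_5_2, 20.1, 20.9 and 17.4 FPKM in Yl_5_3 and 19.7, 20.2 and 20.4 FPKM in Yl_5_1. The samples of Yl_5_3 lay on both sides of those of Yl_5_1, and those of Yl_5_2 were far above both. Its log2 fold change in Yl_5_2 was 0.85 (SE 0.06, edgeR adjusted p = 2.43e-09), a level of 1.81 times the control. In Yl_5_3 it was 0.02, with a 95% interval of -0.10 to 0.15 (edgeR adjusted p = 0.77), and its sign turned with total-count scaling (-0.040) and without replicate 2 of Yl_5_3 (-0.029). The interval leaves room for a change of up to 1.11-fold upward or to 0.931 times the control. Directly compared, Yl_5_2 was 1.78-fold above Yl_5_3 (95% interval 1.63 to 1.93, edgeR adjusted p = 1.44e-09).

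POX5, the other weakly active member, was the only gene of the family that rose in Yl_5_3. It had 11.1, 11.0 and 11.8 FPKM in Yl_5_2, 11.3, 11.7 and 12.2 FPKM in Yl_5_3 and 10.1, 9.91 and 9.94 FPKM in Yl_5_1. Both mutant strains were above the control in every sample, and their FPKM values overlapped each other. The log2 fold change was 0.30 in Yl_5_3 (SE 0.06, edgeR adjusted p = 0.000559). In Yl_5_2 it was 0.12 (95% interval -0.01 to 0.25, edgeR adjusted p = 0.107), and scaling by total counts alone gave 0.18, which passed (edgeR adjusted p = 0.0192). The direct difference of Yl_5_2 from Yl_5_3 was -0.18 (SE 0.06, edgeR adjusted p = 0.0158). It did not pass with total counts (-0.052, edgeR adjusted p = 0.46) or without replicate 3 of Yl_5_3 (-0.14, edgeR adjusted p = 0.079).

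POX6 had 13.8, 13.1 and 15.1 FPKM in Yl_5_2, 6.97, 7.05 and 6.31 FPKM in Yl_5_3 and 11.5, 11.3 and 11.7 FPKM in Yl_5_1. As for POX3, the control samples lay between those of the mutant strains without overlap. The log2 fold change was 0.22 in Yl_5_2 (SE 0.07, edgeR adjusted p = 0.00916) and -0.70 in Yl_5_3 (SE 0.07, edgeR adjusted p = 3.57e-07). The mutant strains differed 1.89-fold (95% interval 1.70 to 2.09, edgeR adjusted p = 5.70e-09), with Yl_5_2 the higher.

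POX1, the other member linked to dicarboxylic acids, had the largest fall of the family, in Yl_5_3. Its counts were 56, 57 and 55 in Yl_5_2, 14, 28 and 25 in Yl_5_3 and 85, 71 and 56 in Yl_5_1. In FPKM these are 1.54, 1.49 and 1.50 in Yl_5_2, 0.361, 0.636 and 0.692 in Yl_5_3 and 1.79, 1.85 and 1.55 in Yl_5_1. All samples of Yl_5_3 were below those of the other strains, with replicate 1 the lowest. The log2 fold change in Yl_5_3 was -1.56 (SE 0.20, edgeR adjusted p = 5.82e-06), a level of 0.340 times the control with a 95% interval of 0.253 to 0.457. Against Yl_5_1 it was the only gene of the family past a stringent condition, an adjusted p under 0.001 and a change of more than 2-fold. The cutoffs are those of the study's stringent condition, which names p without saying that it was adjusted. Of all features, 3.98% passed this condition in Yl_5_3 and 3.01% in Yl_5_2. Without replicate 1 of Yl_5_3 the value was -1.32. On log2(FPKM + 1), where the pseudocount weighs heavily on a gene below 2 FPKM, it was -0.81 (limma adjusted p = 4.90e-05). This passed at an adjusted p under 0.05 but was less than 2-fold, so the stringent condition was not met there.

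In Yl_5_2 the log2 fold change of POX1 was -0.26 (95% interval -0.63 to 0.10, edgeR adjusted p = 0.198), so no change was detected, and the interval reaches down to 0.648 times the control. The direct difference between the mutant strains was 1.29 (SE 0.21, edgeR adjusted p = 3.72e-05), higher in Yl_5_2. It also met the stringent condition, which 5.75% of all features met in this comparison. The difference was 2.45-fold, but its 95% interval of 1.80 to 3.33 includes 2-fold. A test against a 2-fold change was not passed (edgeR glmTreat adjusted p = 0.64). On log2(FPKM + 1) the log2 difference was 0.69 (limma adjusted p = 0.000109), which passed at an adjusted p under 0.05 but did not meet the stringent condition.

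**Figure D4:**
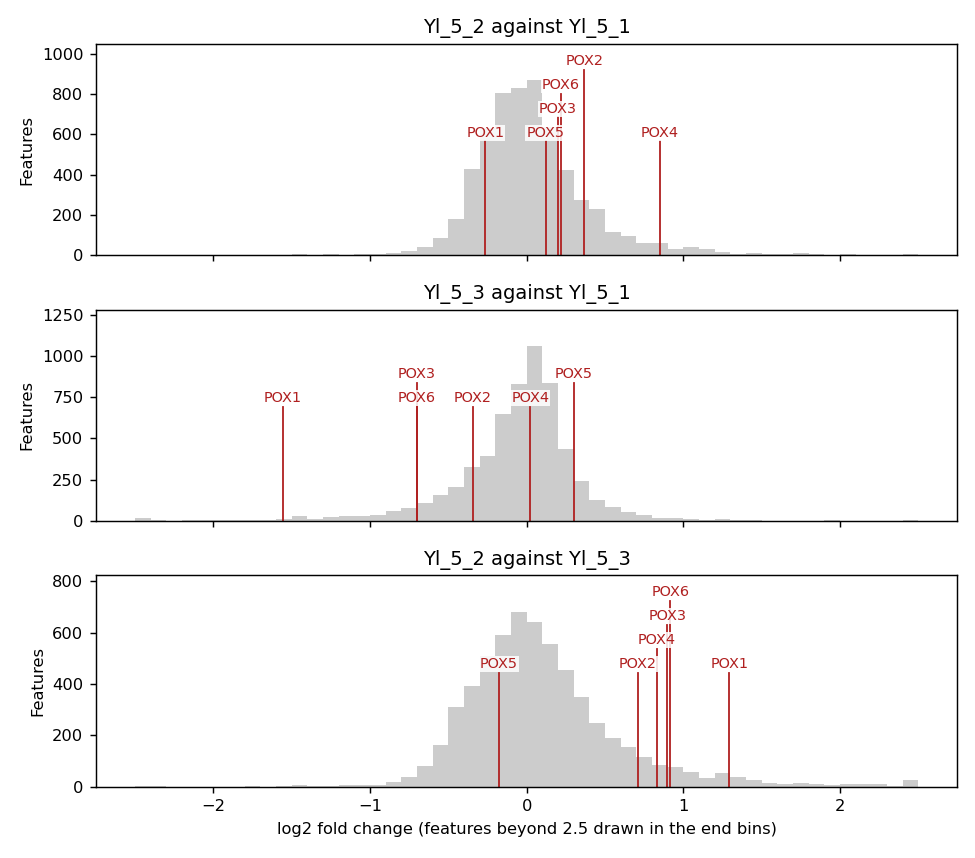
Number of features by log2 fold change (grey, bins of 0.1, features beyond 2.5 in the end bins) for Yl_5_2 against Yl_5_1, Yl_5_3 against Yl_5_1 and Yl_5_2 against Yl_5_3, with POX1 to POX6 marked in red. POX4 at 0.85 in Yl_5_2 and POX1 at -1.56 in Yl_5_3 stand in the tails, and POX5 at -0.18 stands apart from the other members in the direct comparison.

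Samples of the strains compared did not overlap in scaled counts for 6 of 6 genes in Yl_5_2 against Yl_5_1, beside 61.4% of all features. In Yl_5_3 against Yl_5_1 this held for 5 of 6, POX4 being the exception, beside 63.3%, and in Yl_5_2 against Yl_5_3 for 6 of 6, beside 72.1%. Some members stood nearer to the ends of the distribution of all features. Ranked by log2 fold change, POX4 was at the 96.3 percentile in Yl_5_2 and at the 54.3 percentile in Yl_5_3. In Yl_5_3 POX1 was at the 1.13 percentile, POX3 at the 6.26, POX6 at the 6.23 and POX5 at the 89.2.

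Ratios between members within a sample do not depend on the scaling between samples, and they show that the make-up of the family differed between strains. The ratio of POX2 to POX3 was 1.50 ± 0.039 in Yl_5_2, 1.71 ± 0.031 in Yl_5_3 and 1.34 ± 0.056 in Yl_5_1 (SD, n = 3). No sample of one strain lay within the range of another, so POX2 weighed more against POX3 in both mutant strains than in the control. The ratio of POX4 to POX6 was 2.71 ± 0.21 in Yl_5_2 and 2.87 ± 0.098 in Yl_5_3, ranges that overlapped, and 1.74 ± 0.037 in Yl_5_1. POX5 stood at 0.811 ± 0.029 of POX6 in Yl_5_2, 1.74 ± 0.17 in Yl_5_3 and 0.866 ± 0.015 in Yl_5_1, and only in Yl_5_3 was it above POX6. With 3 samples against 3 an exact permutation test cannot go below p = 0.10, so these ratios are given as a description.

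As shares of the summed FPKM, POX2 took 54.5 ± 0.778% in Yl_5_2, 56.6 ± 0.615% in Yl_5_3 and 52.6 ± 0.804% in Yl_5_1. POX3 took 36.2 ± 0.423% in Yl_5_2, 33.0 ± 0.314% in Yl_5_3 and 39.2 ± 1.07% in Yl_5_1. POX4 had a share of 5.47 ± 0.141% in Yl_5_2 and 5.22 ± 0.481% in Yl_5_3, both above its 3.78 ± 0.168% in Yl_5_1, though no change of its level was detected in Yl_5_3. POX5 had 3.15 ± 0.134% in Yl_5_3, against 1.64 ± 0.0895% in Yl_5_2 and 1.88 ± 0.128% in Yl_5_1. The share of POX6 was 2.02 ± 0.180% in Yl_5_2, 1.82 ± 0.108% in Yl_5_3 and 2.17 ± 0.119% in Yl_5_1, and POX1 took at most 0.359% in any sample.

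**Figure D5:**
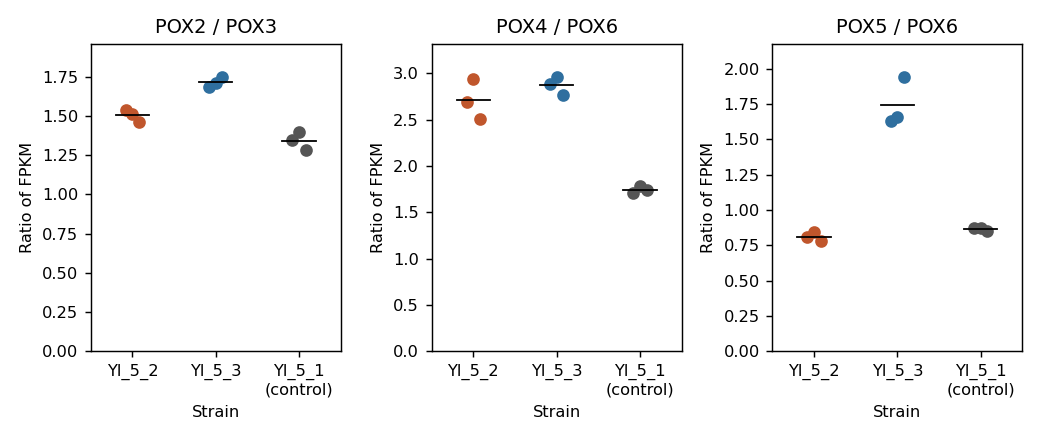
Ratios of FPKM between members within each sample (POX2 to POX3, POX4 to POX6, POX5 to POX6), with points for samples and bars for the means of 3, from Yl_5_2 through Yl_5_3 to the control Yl_5_1. The POX5 to POX6 ratio averages 1.74 in Yl_5_3 and stays below 1 in the other strains.

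The likeness of patterns was measured by Pearson's r of log2 scaled counts over the 9 samples, which is carried mainly by the 3 strain means and is given as a description. POX3 and POX6 were the most alike of the family, with r = 0.978, and 0.978% of the 5216 other features that averaged at least 10 CPM (counts relative to library size) were more like POX3 than POX6 was. The share more like POX6 than POX3 was came to 2.42%. POX2 had r = 0.943 with POX3, 0.915 with POX6 and 0.847 with POX4. Of the other features, 3.36%, 6.19% and 13.5% were more like POX2 than these members were. POX1 had r = 0.852 with POX3 but 0.302 with POX4, and 10.7% and 37.4% of the other features were more like POX1 than these were. POX1 averaged 2.94 CPM in Yl_5_2, 1.20 in Yl_5_3 and 3.52 in Yl_5_1, below the 10 CPM asked of other features. Its r values therefore rest on few reads. POX5 was negatively related to every other member, from -0.82 with POX1 to -0.12 with POX4. Of the other features, 90.8% had a higher r with POX5 than POX1 did, and 56.7% a higher r than POX4 did. Outside the family, the feature most like POX6 was XM_499919.1 (r = 0.997), that most like POX3 was XM_503980.1 (r = 0.995) and that most like POX4 was XM_502677.1 (r = 0.995), none of which the files or the RefSeq table name. Values above 0.9 were common, since 405 features had them with POX2 and 627 with POX6, whereas 77 had them with POX5.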

How the data were processed

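The members and gene lists were chosen with earlier results of these data known. RNA was sequenced from NEBNext Ultra libraries on an Illumina HiSeq instrument. The authors deposited whole-number read counts of 6145 features without normalization, and FPKM values, which equal the deposited counts divided by a feature length and the total count. The lengths are multiples of 3 for the 6 genes, as coding lengths are. The submitters' processing notes name HTSeq 0.6.1 and DESeq 1.18.0. The aligner, genome build and annotation are not given in the sources used here. All columns of sample values were used (0 left out).

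Samples were grouped by their labels. From the counts, edgeR 4.0.16 in R 4.3.3 gave TMM factors, robust quasi-likelihood fits with a term for each strain across the 9 samples, and Benjamini-Hochberg adjusted p-values over 6037 features. Standard errors were derived from the F statistics, and 95% intervals from the t distribution of the model. Alternatives were 3 other scalings, other filters, DESeq2 1.42.0, limma 3.58.1 on log2(FPKM + 1) and log2(FPKM + 0.1), fits of 6 samples, a replicate block, a test against a 2-fold change, and leaving out each sample. The fitting code was tested on simulated data.

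Named genes were all 6 members and, for each, the 2 features with the highest r among features averaging 10 CPM or more, of which 3 are printed. RefSeq's table matched 5430 of the 5959 accessions and gives no gene symbols, so the wider beta-oxidation and peroxisome lists, Yl-SPT15 and GUT2 were not analysed here, nor were sequences. Whether reads of one paralog were counted on another was not tested. In the W29 annotation 0 genes overlap any of the 5 members found there.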

Additional observations from a re-analysis of the deposited data

How the results depend on the processing

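Under the other scalings, filters and tools, apart from the test against a 2-fold change, the calls of POX1, POX2, POX3 and POX6 stood in all 3 comparisons, as did those of POX4. With at least 50 counts in every sample POX1 was not tested. POX5 in Yl_5_2 against Yl_5_1 passed with total counts (0.18) and with limma on log2(FPKM + 1) (0.17) and log2(FPKM + 0.1) (0.18). POX5 in Yl_5_2 against Yl_5_3 missed the threshold with these (-0.052, -0.048 and -0.052), so that 0 genes were called lower. POX4 in Yl_5_3 against Yl_5_1, not called in any setting, changed sign with them (-0.040, -0.046 and -0.048). Total counts moved the median of all features by 0.13 in Yl_5_2 against Yl_5_3, so POX5 at -0.052 lay as far below that median as with TMM.

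None of the 6 genes passed the test against a 2-fold change, which called 77 features in Yl_5_2 and 143 in Yl_5_3 against Yl_5_1, and 215 between the mutant strains, where the test against no change called 3467, 3338 and 4070. POX1 in Yl_5_3 came closest (log2 fold change -1.56, edgeR glmTreat adjusted p = 0.0689). The estimates were as reported: in Yl_5_2 against Yl_5_1, 0.37 for POX2, 0.20 for POX3, 0.85 for POX4 and 0.22 for POX6, with 0 of 6 called. In Yl_5_3 against Yl_5_1 they were -0.34 for POX2, -0.70 for POX3, 0.30 for POX5 and -0.70 for POX6, with 0 called in either direction. In Yl_5_2 against Yl_5_3 they were 1.29 for POX1, 0.71 for POX2, 0.90 for POX3, 0.83 for POX4, -0.18 for POX5 and 0.92 for POX6, with 0 called.

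Leaving out each sample in turn gave -0.20 to -0.14 for POX5 in Yl_5_2 against Yl_5_3, which was lost without replicate 3 of Yl_5_3, so that 0 to 1 genes were called lower. POX4 in Yl_5_3 ranged from -0.029 to 0.093 and changed sign without replicate 2 of that strain. No other call changed. POX6 in Yl_5_2 came nearest, at 0.17 to 0.26 with adjusted p up to 0.0475 (edgeR).

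With the replicate number as a block the calls were the same, with log2 fold changes of 0.37 for POX2 in Yl_5_2 and -0.34 in Yl_5_3, and 3430, 3264 and 4037 features called. The labels do not say that a number marks a shared batch, and same-numbered samples had correlations of their deviations from -0.16 to 0.15 over 9 pairs. The summed level, as TMM-scaled CPM per kb, was 663 in Yl_5_2, 389.6 in Yl_5_3 and 532 in Yl_5_1. As FPKM the means were 693, 373 and 532. The values of Yl_5_2 and Yl_5_3 thus moved towards the control by more than their SD (10.7 and 1.76 FPKM), and the order of the strains held.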

Other observations

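The genes that flank the oxidase genes were examined after the values of the members had been seen. In the W29 annotation the nearest gene on each side with a row in the files was taken for the 5 genes found there, which gave 10 neighbours. Genes without a row were passed over, so a neighbour need not be adjacent, and the gaps ran from 346 bases (POX6) to 7843 bases (POX2). In Yl_5_2 against Yl_5_1, 2 of them rose and 3 fell (median log2 fold change 0.14), in Yl_5_3 against Yl_5_1, 3 rose and 4 fell (median -0.081), and in Yl_5_2 against Yl_5_3, 6 were higher and 2 lower (median 0.28), beside 57.4%, 55.3% and 67.4% of all features changed in either direction. The neighbour XM_504474.1 of POX4 rose in Yl_5_2, by 1.04 on the log2 scale (edgeR adjusted p = 4.50e-11), where POX4 rose by 0.85, and also in Yl_5_3, by 0.62 (edgeR adjusted p = 1.56e-08), where POX4 stood at 0.02. The gene on the other side, XM_504476.1, had -0.31 in Yl_5_2 (edgeR adjusted p = 2.94e-05) and 0.22 in Yl_5_3 (edgeR adjusted p = 0.000717). A neighbour of POX1, XM_504702.1, fell in both strains, by 0.34 in Yl_5_2 and by 0.75 in Yl_5_3 (edgeR adjusted p = 1.02e-05 and 1.01e-09). The other neighbour of POX1 did not pass in Yl_5_2 (0.084, edgeR adjusted p = 0.17) and fell in Yl_5_3 (-0.26, edgeR adjusted p = 0.000463). The gene after POX2 rose in Yl_5_2 (0.68, edgeR adjusted p = 8.85e-05) and in Yl_5_3 (0.46, edgeR adjusted p = 0.00362). The gene before POX2 did not pass in Yl_5_2 (0.031, edgeR adjusted p = 0.65) and fell in Yl_5_3 (-0.15, edgeR adjusted p = 0.0362). Both genes beside POX6, which fell in Yl_5_3, did not pass the test there, with log2 fold changes of -0.016 and -0.18 (edgeR adjusted p = 0.91 and 0.34). In Yl_5_2, where POX6 rose, the gene before it fell (-0.48, edgeR adjusted p = 0.000823). The gene after POX6 did not pass there (0.20, edgeR adjusted p = 0.27). The gene before POX5 did not pass in Yl_5_2 or Yl_5_3 (0.57 and 0.45, edgeR adjusted p = 0.10 and 0.21). The gene after POX5 did not pass in Yl_5_2 (0.40, edgeR adjusted p = 0.12). It fell in Yl_5_3 (-0.83, edgeR adjusted p = 0.0106), where POX5 rose. Reads shared between members and neighbours were not tested.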
